A study of Arabidopsis thaliana with 2 samples.

Results

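The actin and tubulin genes described here are ACT11 (AT3G12110), TUA1 (AT1G64740), TUB5 (AT1G20010) and TUB6 (AT5G12250), measured in seedlings of the Arabidopsis thaliana mutant sks (snakeskin) and of its wild type. The members were all probe sets that the platform annotation gives to 1 of these 4 genes. That rule found 4 probe sets, 1 per gene, among the 3794 probe sets of a single named gene, which cover 3602 genes, and 8247 non-control probe sets in all. The control probe set AFFX-Athal-Actin_3_f_at, which reads actin transcripts as a family, stands beside them.

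The mutant RNA came from an insertion mutant of line sks in the Col-0 ecotype, and the wild-type RNA from Col-0 plants with no genetic modification, called Col below. Both were whole seedlings at growth stage 1.0, grown at 22 °C under 24 hours of light a day on Murashige-Skoog medium with 1% agar and 1% sucrose. Neither the disrupted gene, the number of insertion lines nor the number of seedlings pooled is given by the labels, so the genotype was not checked against the level of its own transcript. Each genotype was measured on 1 Affymetrix oligonucleotide array, and no replicate array shows how far 2 seedling samples of the same genotype differ. No test was therefore possible, and the differences given are between 2 RNA samples, not between the genotypes at large.

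Actin polymerises into filaments that carry organelle movement and guide secretion, and in plant cells it is encoded by a gene family with vegetative and reproductive classes. Tubulin is a dimer of an alpha and a beta chain that assembles into microtubules, and the cortical microtubules of expanding cells guide the laying down of cellulose. ACT11 belongs to the reproductive class of actin genes, with expression in pollen, ovules and other developing organs. TUA1 encodes an alpha chain known for its preference for pollen, and TUB5 and TUB6 encode beta chains of the microtubule dimer.

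All 4 genes had lower signals in sks seedlings. ACT11 differed most, at 3.12-fold, followed by TUA1 at 2.16-fold, TUB5 at 1.59-fold and TUB6 at 1.48-fold. The actin family control probe set did not share that direction with the deposited scaling, and neither did TUB9, another beta-tubulin gene. Levels are linear signal intensities in arbitrary units. Different probe sets bind with different strength, so each gene was compared with itself across the arrays and not with the other genes.

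ACT11, probe set 19187_at, had a signal of 192.2 in sks and 599.9 in Col. The log2 difference (sks minus Col) was -1.64. Both signals lay well above those of 23 blanks, the control probe sets for mouse, yeast and Bacillus genes, whose highest signal was 16.8 on the sks array and 11.1 on the Col array. The actin family control, whose _f_at suffix marks probes that match several related transcripts, read 1857.7 in sks and 1550.7 in Col. Its log2 difference was 0.26, which became -0.18 when the arrays were scaled by the hybridisation spikes and -1.03 when they were scaled by the 3′ GAPDH control. The log2 difference of ACT11 minus that of the actin family reading was -1.90. A common scaling factor cannot alter that gap, and it ranged from -1.90 to -1.72 over all settings, quantile normalization, loess removal, the blank floor and the added offset included. The 2 probe sets thus moved unequally between these arrays. The family control is a 3′ probe set, and the 3′ to 5′ signal ratio of GAPDH was 4.14 in sks and 2.94 in Col. Probe sets of the same gene also differed, with a pooled SD of 0.65 log2 units around their gene's mean. Whether either had a part in the gap was not tested.

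The only other actin gene read singly was ACT12, a pollen-expressed member of the reproductive class. ACT12 read 11.1 in sks and 5.5 in Col, both within the blank range, so no fold is given. The vegetative actin genes ACT2, ACT7 and ACT8 were not analysed here on their own.

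TUA1, probe set 17466_s_at, had a signal of 35.3 in sks and 76.2 in Col. The sks signal was 2.10 times the highest blank of its array and the Col signal 6.86 times the highest blank of its array. Its log2 difference of -1.11 was just past the 2-fold limit, and it was -0.98 after quantile normalization, -0.98 after loess removal and -0.85 with an offset of 16 added to both arrays. The _s_at suffix marks probes shared with related transcripts, so part of this signal may come from other alpha-tubulin genes. A probe set listed for both TUA3 and TUA5, which encode alpha chains, read 704.9 in sks and 874.6 in Col, a log2 difference of -0.31. The log2 difference of TUA1 minus that of the TUA3 and TUA5 probe set was -0.80 as deposited and -0.54 with the offset.

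TUB5, probe set 16502_at, read 64.5 in sks and 102.5 in Col, a log2 difference of -0.67. TUB6, probe set 16480_at, read 311.6 in sks and 459.8 in Col, a log2 difference of -0.56. Both beta-tubulin genes were lower in sks but neither reached 2-fold with the deposited scaling. TUB5 and TUB6 differed from each other by -0.11 log2 units in their sks against Col difference, and by 0.01 after loess removal. For scale, 2 measured probe sets of the same gene differed by a median of 0.33 log2 units over 101 pairs from 80 genes, and the pooled SD of such probe sets around their gene's mean was 0.65. The log2 difference of ACT11 minus that of TUA1 was -0.53, and that of TUA1 minus that of TUB5 -0.44. Both gaps were larger than the median of 0.33 between 2 probe sets of the same gene. The SD of 0.65 is around a gene's mean and is not a spread of such pairs. With 1 probe set per gene, no order among the 4 genes is drawn from neighbours in size. The spread within genes describes probe sets hybridised with the same RNA and is no measure of error between seedling samples. Each of the 4 genes had 1 probe set, so none of the differences could be checked on another probe set of the same gene.

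**Figure D1:**
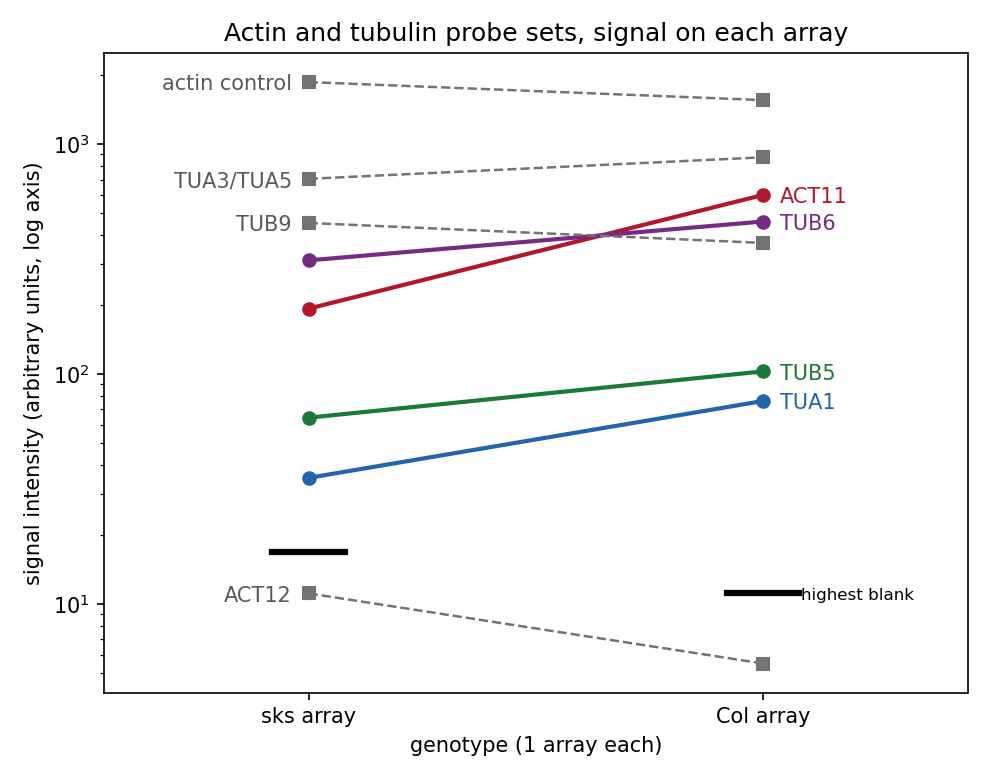
Signal intensity (arbitrary units, log axis) of each actin and tubulin probe set on the sks array (left) and the Col array (right), 1 array per genotype. Solid coloured lines are ACT11, TUA1, TUB5 and TUB6, dashed grey lines are the other actin and tubulin probe sets, and black bars are the highest blank signal of each array (16.8 and 11.1). All 4 coloured lines are lower on the sks array, with ACT11 the steepest, whereas TUB9 and the actin control are slightly higher there.

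TUB9, probe set 16051_at, read 453.2 in sks and 371 in Col. Its log2 difference was 0.29 as deposited, but -0.15 with spike scaling and -1.00 with GAPDH scaling, so its direction depends on the scaling. Relative to TUB9, the log2 difference of TUB6 was -0.85 and that of TUB5 -0.96. These gaps ranged over the scalings and low-signal settings from -0.85 to -0.82 for TUB6 and from -0.96 to -0.84 for TUB5. A common scaling factor cannot alter them and the blank floor did not, so only quantile normalization, loess removal and the offset could move them. Each of these genes was read by 1 probe set. The gaps were larger than the median difference of 0.33 log2 units between 2 probe sets of the same gene. They were also larger than the pooled SD of 0.65 around a gene's mean. How often 2 probe sets of the same gene differed by as much was not counted, so no difference between the beta-tubulin genes is drawn from the gaps. TUB9 was within 2-fold with the deposited scaling.

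Against the whole array, 2 of the 4 genes were at least 2-fold lower in sks and none was at least 2-fold higher. Of the 4124 probe sets whose mean log2 signal reached the median of all non-control probe sets (a signal of 19.4), called measured here, 12.4% were at least 2-fold lower and 8.12% at least 2-fold higher. All 4 genes were measured. The median log2 difference was -0.89 over the 4 genes and -0.08 over all measured probe sets, of which 54.4% lay below 0. At this background genes past 2-fold are common, and with 4 genes the count is a description of these genes. The 4 genes were also chosen with earlier results of these data known. Their count and median beside the whole array are therefore no test.

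The position of each gene among all measured probe sets differed, and these positions carry the same limit from how the genes were chosen. A lower log2 difference than that of ACT11 was seen in 155 probe sets (3.76%), and ACT11 was among the 4.49% that were at least 3-fold lower. For TUA1 the share with a lower difference was 10.7%, for TUB5 22.3% and for TUB6 26.4%. ACT11 was thus toward the low end of the array, and TUB5 and TUB6 lay within the lower part of its main body. With measured probe sets split by signal into 4 bands of 1031, ACT11 and TUB6 fell in the brightest band, where 10.7% were at least 2-fold lower. In the band of TUB5 14.5% were, and in the dimmer band of TUA1 11.4%. The SD of the log2 differences was 0.88 in the band of ACT11 and TUB6, 0.95 in that of TUB5 and 0.90 in that of TUA1, so the spread over probe sets was similar at these signal levels.

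**Figure D2:**
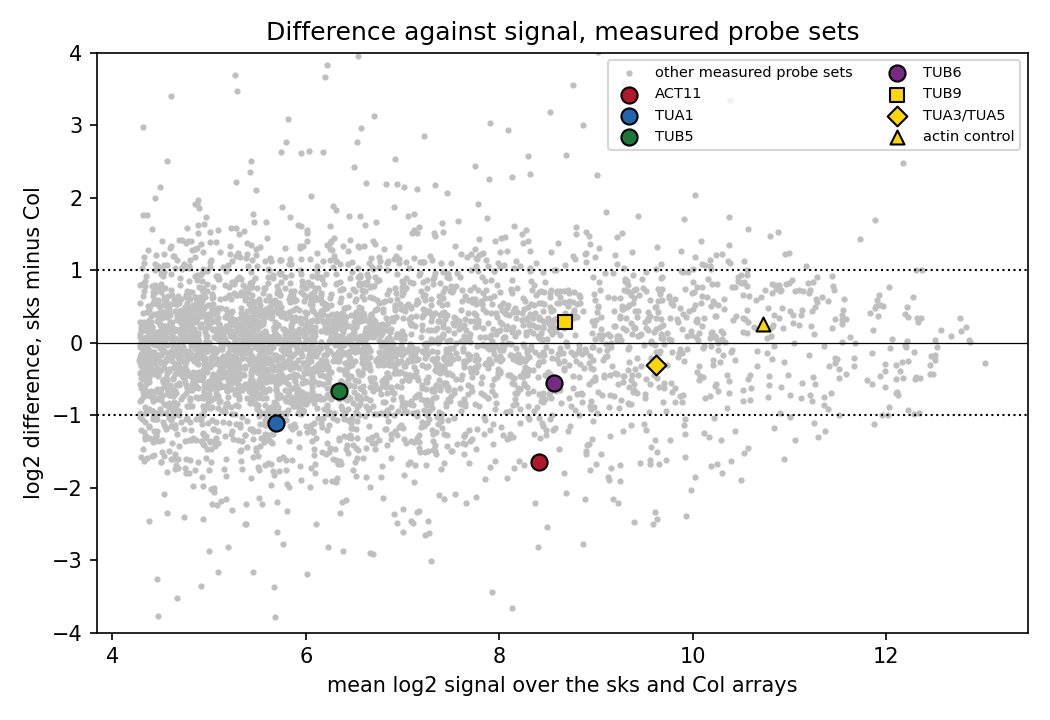
Log2 difference (sks minus Col) against mean log2 signal over both arrays for the 4124 measured probe sets (grey), with the 4 genes as coloured circles, and TUB9, the TUA3 and TUA5 probe set and the actin control in yellow. Dotted lines mark 2-fold, and 17 probe sets lie beyond the axis limit of 4 log2 units. ACT11 and TUA1 are below the lower dotted line, TUB5 and TUB6 between that line and 0.

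How far the genes stood below Col depended on how the arrays were set against each other. The 2%-trimmed mean was 100.2 on both arrays, and the deposited values were used without further scaling. The hybridisation spikes were brighter on the sks array by a median of 0.44 log2 units. After scaling by them all 4 genes were at least 2-fold lower, ACT11 by -2.08, TUA1 by -1.55, TUB5 by -1.11 and TUB6 by -1.00 on the log2 scale. The whole array moved with them, to 1092 measured probe sets at least 2-fold lower and 135 at least 2-fold higher, against 510 and 335 as deposited. Relative to the median of all measured probe sets, the log2 differences were -1.56 for ACT11, -1.03 for TUA1, -0.59 for TUB5 and -0.48 for TUB6, whichever common factor was used. Scaling by actin itself, with the family control set equal on both arrays, gave -1.90 for ACT11, -1.37 for TUA1, -0.93 for TUB5 and -0.82 for TUB6. Each of the 4 genes was lower in sks in all 10 settings tried, the deposited scaling included. Scaling by the spikes, GAPDH, actin or ubiquitin only lowered the differences, so their sign could not change there. Median centring raised them by 0.08, too little to change a sign. A common factor cannot change which gene is lowest, and the blank floor left all 4 values as they were. In the 3 settings that could change it (quantile normalization, loess removal and the offset), ACT11 had the lowest log2 difference of the 4.

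**Figure D3:**
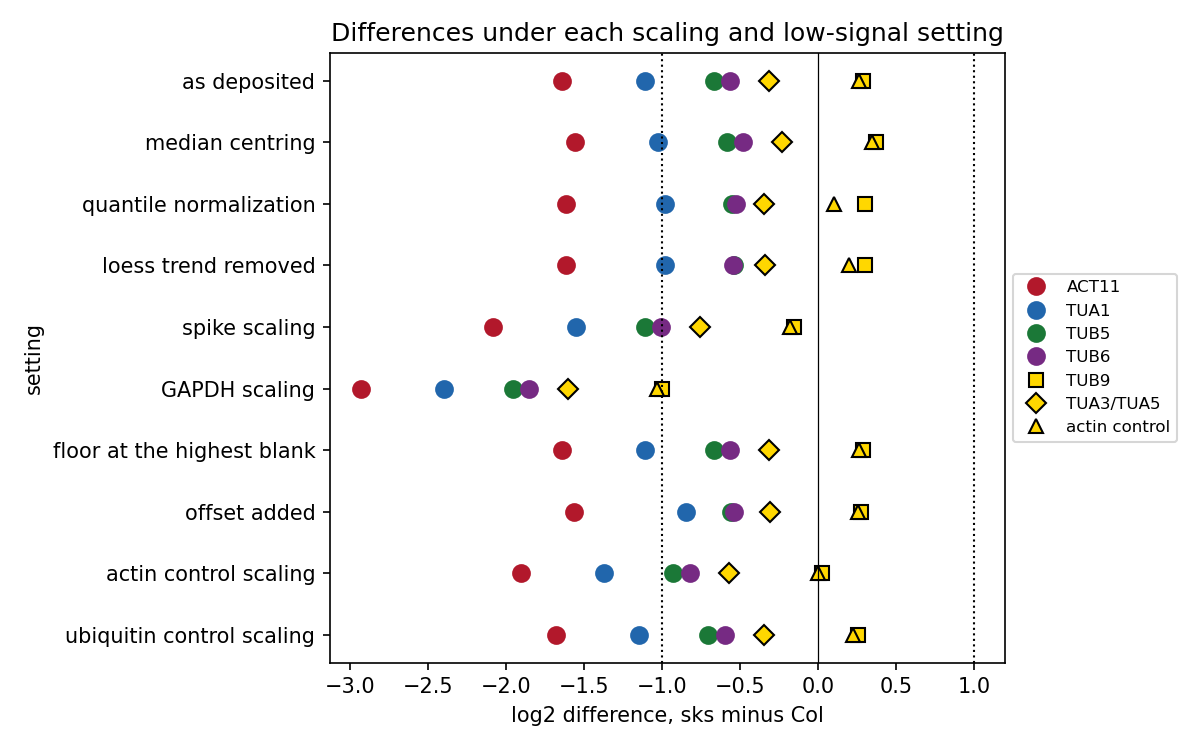
Log2 difference (sks minus Col, horizontal axis) of each actin and tubulin probe set under each scaling or low-signal setting (vertical axis), 1 point per probe set. Dotted lines mark 2-fold. ACT11 stays left of -1 in every setting, TUA1 crosses that line in 3 settings, and TUB9 and the actin control change sign with spike and GAPDH scaling.

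The actin and tubulin list held 26 genes, of which 6 had a single-gene probe set and 5 were measured. Of these 5, 2 (ACT11 and TUA1) were at least 2-fold lower, none was at least 2-fold higher, and the median log2 difference was -0.67. Because 4 of the 5 are the genes described above, the list adds only TUB9. In the list of 48 actin-binding and actin-nucleating proteins, BRK1 was the only gene with a probe set named here. BRK1, a small subunit of the SCAR/WAVE complex that activates actin nucleation, read 46.1 in sks and 82.3 in Col, a log2 difference of -0.84. In the list of 44 microtubule-associated proteins, tubulin folding factors and kinesins, 2 genes had a probe set and neither was measured. SPR1, a microtubule plus-end protein needed for straight organ growth, read 16 in sks and 7.4 in Col, both within the blank range. POR, the tubulin folding cofactor C, read 2.8 in sks, within the blank range, and 12.7 in Col, just above it. These proteins handle the filaments or the folding of their subunits, and the dim signals give no direction for SPR1 or POR.

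ACT11 and TUA1 are known for expression in pollen, so markers of other tissues were read on the same arrays. In the pollen list of 13 genes, 5 had a single-gene probe set, ACT12 and TUA1 among them. Without TUA1, the remaining 4 ranged from 0.6 to 11.1 in sks and from 0.6 to 5.5 in Col, all within the blank range, with summed signals of 15.7 and 15. VGD1, a pectin methylesterase of the pollen tube, read 2.8 in sks and 4.3 in Col, and the pollen pectate lyase gene AT59 read 0.6 on both arrays. These 4 pollen markers were at blank level in both seedling samples, and none was measured by the signal limit used here. ACT11 and TUA1 were above the blank range. The source of the ACT11 and TUA1 signals was not tested.

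Of 13 green tissue markers 4 had a single-gene probe set, and all 4 were bright on both arrays. Their signals ranged from 1848.3 to 4306.8 in sks and from 2710.7 to 5970.1 in Col, with sums of 13195 and 20253.8. All 4 were lower in sks, with log2 differences from -0.997 to -0.467 and a median of -0.53, and none was at least 2-fold lower. The only seed marker with a probe set, the isocitrate lyase gene ICL, which serves the use of stored oil after germination, read 308.7 in sks and 35.3 in Col. None of the 9 root markers could be read singly. Whether a different make-up or stage of the seedlings had a part in the actin and tubulin differences was not tested, and in whole seedlings fewer cells of a type and less RNA per cell cannot be told apart. RNA measures also differed in part, with a 3′ to 5′ signal ratio of 4.14 in sks and 2.94 in Col for GAPDH, and of 4.65 in sks and 4.84 in Col for ubiquitin. The 25S rRNA control read 117.2 in sks and 296.8 in Col, a log2 difference of -1.34. The part of RNA quality in the results was not tested.

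**Figure D4:**
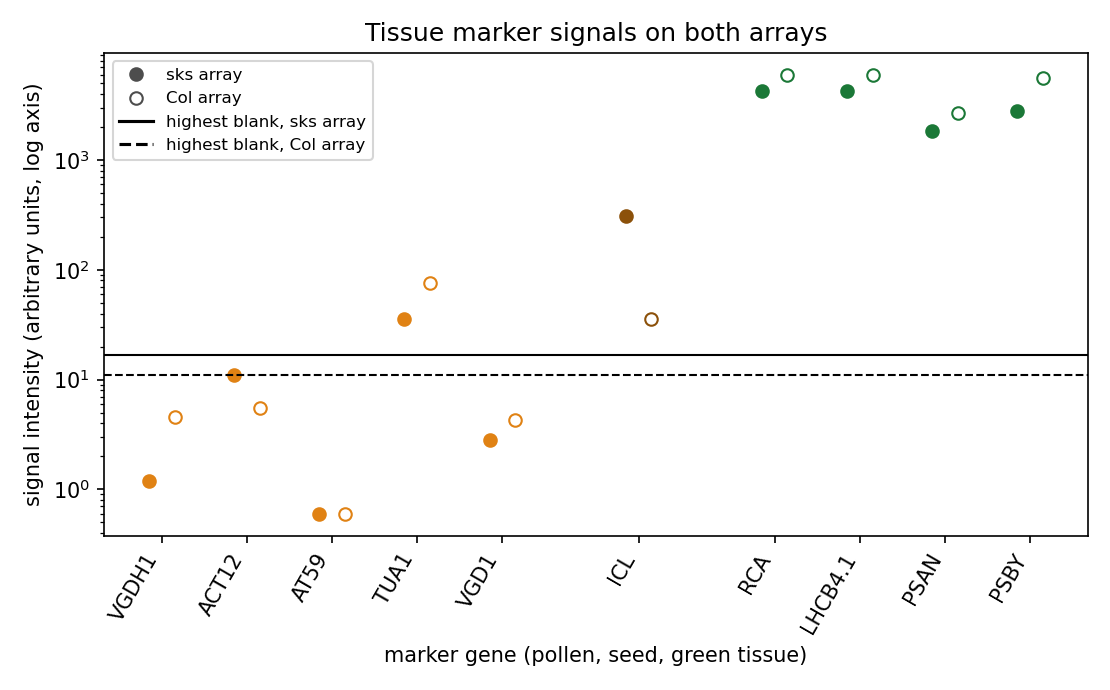
Signal intensity (arbitrary units, log axis) of pollen, seed and green tissue markers with a single-gene probe set, filled circles for the sks array and open circles for the Col array, with lines at the highest blank of each array. Pollen markers other than TUA1 lie below the lines, green tissue markers lie at 1848.3 or above on both arrays, and ICL is the only marker above the blank range that is higher in sks.

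For each gene, the most similar of 1413 other measured genes' plain probe sets was sought by the distance between the 2 log2 signals, outside the cytoskeleton lists. Over 2 arrays this finds genes of like signal and like difference and nothing further. Closest to TUA1 was NTRC (AT2G41680), which encodes a chloroplast thioredoxin reductase, at 35.5 in sks and 76.2 in Col, a distance of 0.01. AT2G20230 was closest to ACT11, at 167.3 in sks and 518.2 in Col, a distance of 0.29, followed by AT2G32150 (235.2 in sks and 651 in Col) and AT2G35260 (235.6 in sks and 509.9 in Col). For TUB5 it was AT2G03390 (62 in sks and 105.9 in Col, distance 0.07), and for TUB6 AT2G24420 (317.1 in sks and 426.2 in Col, distance 0.11). Of the 4 genes, ACT11 had the most distant nearest gene.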

How the data were processed

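Whole-seedling RNA of sks and Col was measured on 1 Affymetrix array per genotype. The authors deposited 1 linear intensity for each probe set and array. The software that summarised and scaled them is not given in the sources used here. Per the labels, total RNA was prepared with a Qiagen kit and Trizol and labelled as biotin cRNA from an oligo-dT primer. Mean scanner background was 61.92 for sks and 57.92 for Col. The number of arrays, 1 per genotype, limits the precision.

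Differences are log2 of the sks signal minus log2 of the Col signal, with a floor of 1 on each signal. The 50 control probe sets stayed out of the counts. Named genes came from the platform annotation, which can be old, updated by Entrez ID from RefSeq genes of TAIR10.1. The files name no build, so no coordinates are given. The 2 probe sets matched to a list by the symbol CCT1 were dropped, since the gene table names another kind of protein. Text values follow a rule that names all probe sets of the 4 genes, the actin control, every list gene for actin and tubulin, up to 4 measured genes with the largest difference from each other list, and the 3 nearest genes by signal; of the nearest genes the first is given for TUA1, TUB5 and TUB6. SPR1, POR, VGD1 and AT59, which were not measured, were named outside that rule, and the green tissue markers were given only as a group. The members and lists were chosen with earlier results of these data known. Scaling by the actin and ubiquitin controls was added after seeing the data. The counting step was tested on simulated data with a noise level that was set and not estimated from these arrays. That test therefore gives no error rate for the counts. Python 3.11.15, pandas 2.3.3 and statsmodels 0.14.6 (loess span 0.4) were used.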

Additional observations from a re-analysis of the deposited data

How the results depend on the processing

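The log2 differences of ACT11, TUA1, TUB5 and TUB6 stayed below 0 in all 10 settings. The deposited scaling is 1 of these 10. These differences could not rise under spike, GAPDH, actin or ubiquitin scaling or the blank floor. Median centring raised each by 0.08, too little to change a sign. They ranged from -2.93 to -1.56 for ACT11, from -2.40 to -0.85 for TUA1, from -1.96 to -0.54 for TUB5 and from -1.85 to -0.48 for TUB6. TUA1 fell short of 2-fold after quantile normalization (-0.98), loess removal (-0.98) and the offset (-0.85), where 1 of the 4 genes, ACT11, was at least 2-fold lower in place of 2. With spike scaling 4 were (TUB5 at -1.11, TUB6 at -1.00), as with GAPDH scaling (TUB5 at -1.96, TUB6 at -1.85). The count was 3 at 1.5-fold, where TUB5 joins, 1 at 3-fold and 1 on plain probe sets, by construction. The actin control was at 0.26 as deposited, -0.18 with spike scaling and -1.03 with GAPDH scaling. The list median of -0.67 was -1.11 and -1.96 in those settings. Measured probe sets at least 2-fold lower and higher, 510 and 335 as deposited, were 1092 and 135 with spike scaling, 2863 and 51 with GAPDH scaling, and 334 and 222 with the offset. They were 1048 and 751 at 1.5-fold, 185 and 105 at 3-fold, 1258 and 1008 without a filter, 259 and 194 with a signal limit at percentile 75, and 175 and 96 on plain single-gene probe sets, where the limit or the numbers differ by construction. Spike scaling lowered all differences by 0.44 log2 units and GAPDH scaling by 1.29, which moved the counts. GAPDH scaling used the 3′ probe set, while the log2 difference was 0.94 for the middle GAPDH probe set and 0.79 for the 5′ one. Leaving out a replicate was not possible. No paired analysis was possible because there was a single array of sks and of Col.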

Other observations

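The following values were chosen after they were seen. Myosins are the motor proteins that move along actin filaments, and 6 myosin genes were read by a probe set of their own. Their signals ranged from 0.3 to 16.6 in sks, all 6 within the blank range, and from 0.7 to 19.3 in Col, 5 of 6 within it. The exception was XI-I, at 16.6 in sks and 19.3 in Col. None was measured by the signal limit used above, so these arrays give no direction for the myosins.

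The gene directly before TUA1 in the order of protein-coding genes, CP5 (AT1G64720), was also lower in sks. Its 2 probe sets read 545.9 in sks and 1385.1 in Col, and 314.2 in sks and 1180.8 in Col, log2 differences of -1.34 and -1.91, and both carry a shared-probe suffix. Within 50 genes on either side of TUA1, 5 genes were measured, 2 of them at least 2-fold lower (CP5 and CDI) and none at least 2-fold higher, where over all measured probe sets 12.4% were at least 2-fold lower and 8.12% at least 2-fold higher. Windows of so few genes, picked after their values were seen, cannot show a regional pattern. CDI (AT1G64980), annotated as cadmium-induced, read 58.5 in sks and 327.3 in Col. The other 3 were within 2-fold, AT1G64710 at 56.7 in sks and 46.6 in Col, ILA at 33.8 in sks and 17.5 in Col, and AT1G64850 at 130.8 in sks and 147.5 in Col. The same window held 2 measured genes for TUB5, 1 of them at least 2-fold lower (the dehydrin gene COR47, at 362.7 in sks and 882 in Col), and 2 for TUB6, none past 2-fold. It held 0 for ACT11.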
